A study of Mus musculus with 7 samples.

Results

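Transcripts of 10 negative regulators of inflammatory signalling were followed in CD8 dendritic cells that differed in their level of CD103, the integrin chain encoded by Itgae. The genes were Tnfaip3, Tnip1, Cyld and Peli1, which act on ubiquitin chains, Irak3, a decoy kinase, Zfp36 and Zc3h12a, which shorten the life of cytokine mRNAs, and Dusp1, Dusp2 and Dusp5, which are phosphatases of MAP kinases. They were taken by name from the 27179 genes counted in each library, all 10 were found, and 9 had enough counts to be tested, Irak3 being the exception. RNA-seq was made from total RNA of sorted cells of C57BL/6 mice in 7 samples, which the series' design text describes as biological replicates. Untreated cells were either CD103 negative (n = 3) or CD103 low (n = 2), and the CD103 high cells (n = 2) came with a CpG treatment label, so that the effects of CpG and of the CD103 level cannot be told apart. The series concerns dendritic cells that respond poorly after a systemic inflammatory syndrome. CD103 negative replicates 1 and 2 and both CpG CD103 high replicates were dated 2012, and the CD103 low pair and CD103 negative replicate 3 were dated 2013. The sources used here do not give the organ, the age, the dose and time after CpG or what was done on those dates.

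CpG DNA is sensed in endosomes by Toll-like receptor 9, which CD8 dendritic cells express, and signals through MyD88 and IRAK kinases to the IKK complex, NF-kB and the MAP kinases. The pathway induces its own brakes: A20 (Tnfaip3) and CYLD remove or replace the ubiquitin chains that carry the signal, IRAK-M (Irak3) holds back the IRAK kinases, tristetraprolin (Zfp36) and Regnase-1 (Zc3h12a) destroy inflammatory mRNAs, and the dual-specificity phosphatases switch off ERK, p38 and JNK. Several of these genes are also immediate early genes, which are transcribed within minutes of many kinds of stimulus, cell isolation among them.

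The stretches upstream of their start sites are shown for the 3 members that passed the test in a comparison (Zc3h12a, Dusp2 and Dusp5) and for the 3 others that varied most between libraries (Tnfaip3, Zfp36 and Dusp1). Each covers the 250 bases before the first base of the transcript, 5′ to 3′ on the gene's own strand, from RefSeq on build GRCm38.p6. They lie at chr10:19015411-19015660 (minus strand) for Tnfaip3, where the more distal of 2 listed start sites was used, chr7:28379229-28379478 (minus) for Zfp36, chr4:125127882-125128131 (minus) for Zc3h12a, chr17:26508473-26508722 (minus) for Dusp1, chr2:127335909-127336158 (plus) for Dusp2 and chr19:53528895-53529144 (plus) for Dusp5. Capitals mark matches to 5 motifs searched on both strands: the NF-kB consensus, the CArG box of serum response factor, the cyclic AMP response element TGACGTCA, its core TGACG, which the full element contains and which was counted there too, and the AP-1 site TGANTCA.
Tnfaip3: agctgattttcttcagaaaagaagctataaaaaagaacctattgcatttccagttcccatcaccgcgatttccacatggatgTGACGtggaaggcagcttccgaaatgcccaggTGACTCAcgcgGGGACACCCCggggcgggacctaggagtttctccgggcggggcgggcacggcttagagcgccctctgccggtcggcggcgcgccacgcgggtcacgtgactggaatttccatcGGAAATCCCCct
Zfp36: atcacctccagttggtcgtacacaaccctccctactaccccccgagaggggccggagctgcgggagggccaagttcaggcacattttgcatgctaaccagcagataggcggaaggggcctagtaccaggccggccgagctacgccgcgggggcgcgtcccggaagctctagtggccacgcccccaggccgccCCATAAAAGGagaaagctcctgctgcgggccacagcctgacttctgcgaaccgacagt
Zc3h12a: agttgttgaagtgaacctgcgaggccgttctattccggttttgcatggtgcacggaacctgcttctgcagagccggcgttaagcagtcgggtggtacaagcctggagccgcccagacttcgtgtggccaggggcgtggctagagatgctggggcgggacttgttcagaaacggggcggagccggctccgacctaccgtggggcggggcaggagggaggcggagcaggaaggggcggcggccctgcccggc
Dusp1: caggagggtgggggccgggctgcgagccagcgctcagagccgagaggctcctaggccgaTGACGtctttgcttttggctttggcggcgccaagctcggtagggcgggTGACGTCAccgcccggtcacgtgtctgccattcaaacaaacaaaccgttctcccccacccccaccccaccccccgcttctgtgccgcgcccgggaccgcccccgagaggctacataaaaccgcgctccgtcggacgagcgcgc
Dusp2: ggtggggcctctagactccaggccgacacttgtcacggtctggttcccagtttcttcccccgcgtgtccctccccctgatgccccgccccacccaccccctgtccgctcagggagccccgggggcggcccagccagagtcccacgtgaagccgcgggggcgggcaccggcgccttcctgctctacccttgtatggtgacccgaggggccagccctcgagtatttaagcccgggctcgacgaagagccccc
Dusp5: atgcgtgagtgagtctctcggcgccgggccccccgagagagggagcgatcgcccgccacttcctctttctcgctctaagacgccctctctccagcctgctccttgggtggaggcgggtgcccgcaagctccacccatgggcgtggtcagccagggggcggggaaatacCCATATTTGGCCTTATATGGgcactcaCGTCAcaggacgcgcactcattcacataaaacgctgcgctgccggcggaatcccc

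The NF-kB consensus was present upstream of Tnfaip3, Tnip1 and Cyld, that is 3 of 10 members, against 7.25% of 32851 RefSeq promoter windows of the same length. In Tnfaip3 it occurred at 2 places, 125 to 116 and 12 to 3 bases before the start, and an AP-1 match (6.75% of windows) lay 136 to 130 bases before it. A CArG box, found in 1.47% of windows, was present upstream of Zfp36 and Dusp5, and Dusp5 held 2 of them side by side from 82 to 63 bases before the start. The full cyclic AMP response element, found in 1.55% of windows, was present upstream of Dusp1 alone among the members, 143 to 136 bases before the start. The core TGACG occurred in Tnfaip3, Dusp1 and Dusp5 and in 17.8% of windows. None of these letters were in the windows of Zc3h12a and Dusp2. Members were counted by gene and the background by window, although Tnfaip3 and Irak3 had 2 windows each. These matches describe the sequence and were not tested for binding or function.

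The libraries held 4474211 to 4629181 counts each, and levels are given as CPM, counts relative to the library's total, on a library size scaled by the trimmed mean of M-values (TMM). Itgae followed the labels, at 992 to 1019 CPM in CpG CD103 high, 346 to 375 in CD103 low and 54.3 to 62.7 in CD103 negative libraries, and all 10 markers of the cDC1 lineage, to which CD8 dendritic cells belong, were detected in every library. CD103 negative replicate 1 stood apart in the genes described here. Its CPM was more than 1.5 times that of replicate 2, which has the same date, in 6 of the 9 tested members, against 5.93% of all tested genes. It was the highest of the 7 libraries for 5 of the 9 (Tnfaip3, Zfp36, Dusp1, Dusp2 and Dusp5), against 14.6% of all tested genes, and for 18 of 24 other immediate early genes. The summed CPM of those 24 genes was 17562 in it and 5811 to 11061 in the other 6 libraries. For the members, the comparisons are therefore given with and without this library. The part of the immediate early genes in the results was not tested.

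**Figure D1:**
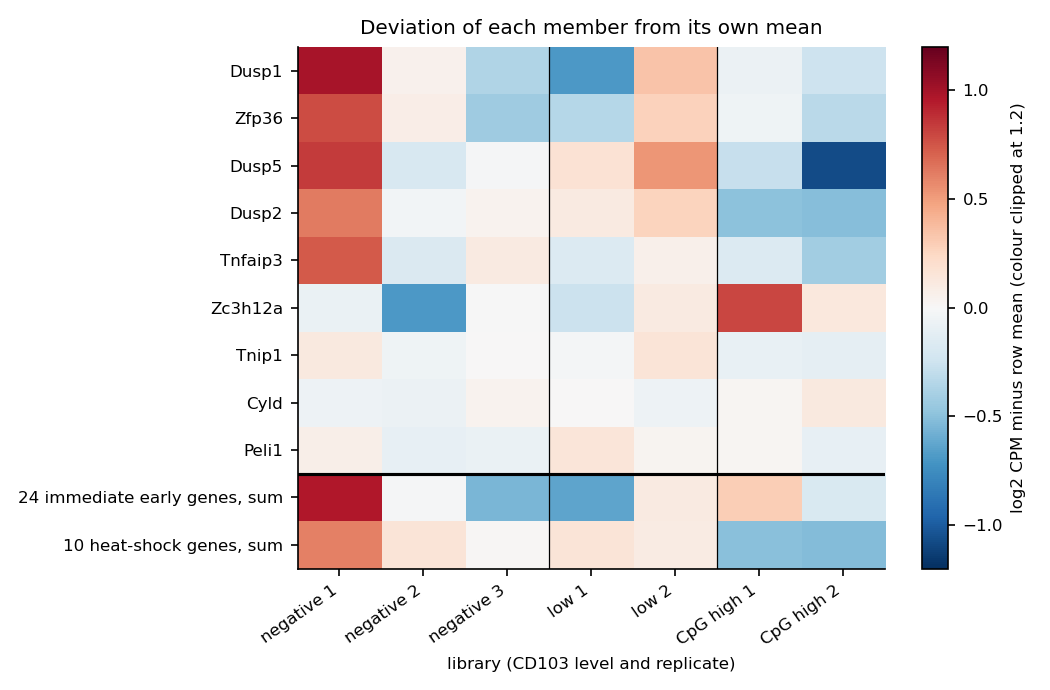
Log2 CPM of the 9 tested members in each library minus the gene's mean over the 7 libraries (colour, clipped at 1.2), with the summed CPM of 24 immediate early genes and of 10 heat-shock genes treated in the same way. CD103 negative replicate 1 is the darkest red column for Dusp1, Zfp36, Dusp5, Dusp2 and Tnfaip3, while Tnip1, Cyld and Peli1 stay near 0 throughout.

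Per kilobase of the gene length in the deposited files, Zfp36 was the most abundant member, with a mean over the 7 libraries of 795 CPM per kb, followed by Dusp1 with 297. Both lay above every other member in every library, and by CPM they ranked 47th and 191st of all genes. Dusp2 (39.3 CPM per kb), Dusp5 (38.6) and Peli1 (34.5) formed a middle group in which neighbours overlapped in range. Tnip1 and Tnfaip3 came next at a mean of 27.0 CPM per kb each, and their ranges overlapped too. Cyld (18.0), Zc3h12a (9.31) and Irak3 (0.212) followed, each below its neighbour in all 7 libraries.

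**Figure D2:**
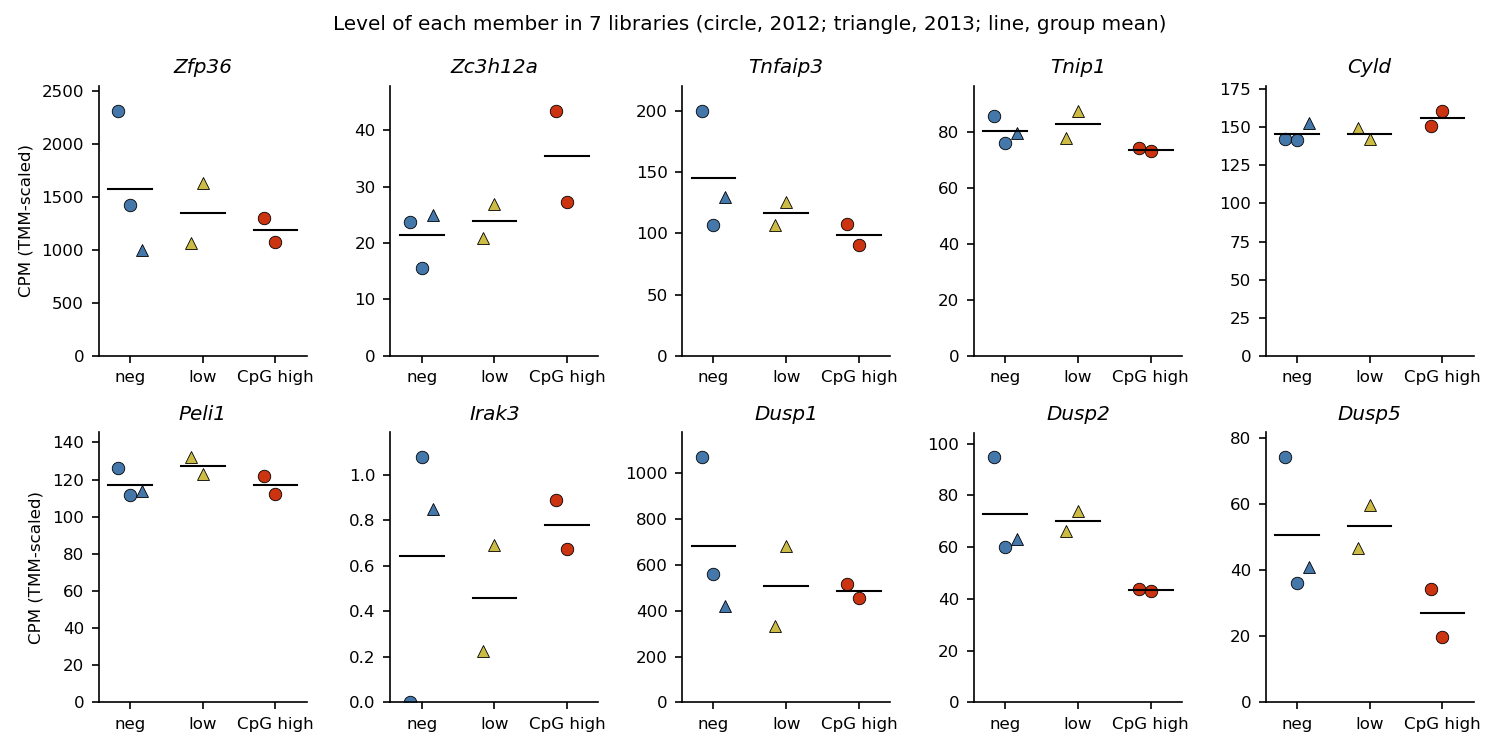
TMM-scaled CPM of each member (y axis, from 0, its own scale per gene) in the CD103 negative (neg), CD103 low (low) and CpG CD103 high groups; circles are libraries dated 2012, triangles 2013, and lines are group means. The CpG CD103 high libraries lie below all others for Dusp2 and Dusp5 and above all others for Zc3h12a, and the left-hand CD103 negative circle is replicate 1.

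In the CpG CD103 high cells a minority of the members passed the test, and not in 1 direction. Against CD103 negative cells, Zc3h12a rose 1.81-fold, Dusp2 fell 1.79-fold and Dusp5 fell 2.05-fold, and the other 6 tested members did not pass the test. That makes 3 of 9 called by edgeR's quasi-likelihood test at an adjusted p under 0.05, where 26.3% of all 10863 tested genes were called (14.5% higher, 11.8% lower), so the share called was near that of genes at large. The median log2 fold change of the 9 was -0.63, beside -0.01 for all genes, and without CD103 negative replicate 1 it was -0.11. Without that library 1 of 9 was called, Zc3h12a, against 16.1% of all genes. Without CD103 negative replicate 2 instead, 5 of 9 were called, all lower, and the median log2 fold change of the 9 was -0.96. In that fit 1002 of 10806 tested genes were called higher and 835 lower. In RNA from whole samples, fewer cells that express a gene and less RNA per cell cannot be told apart.

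**Figure D3:**
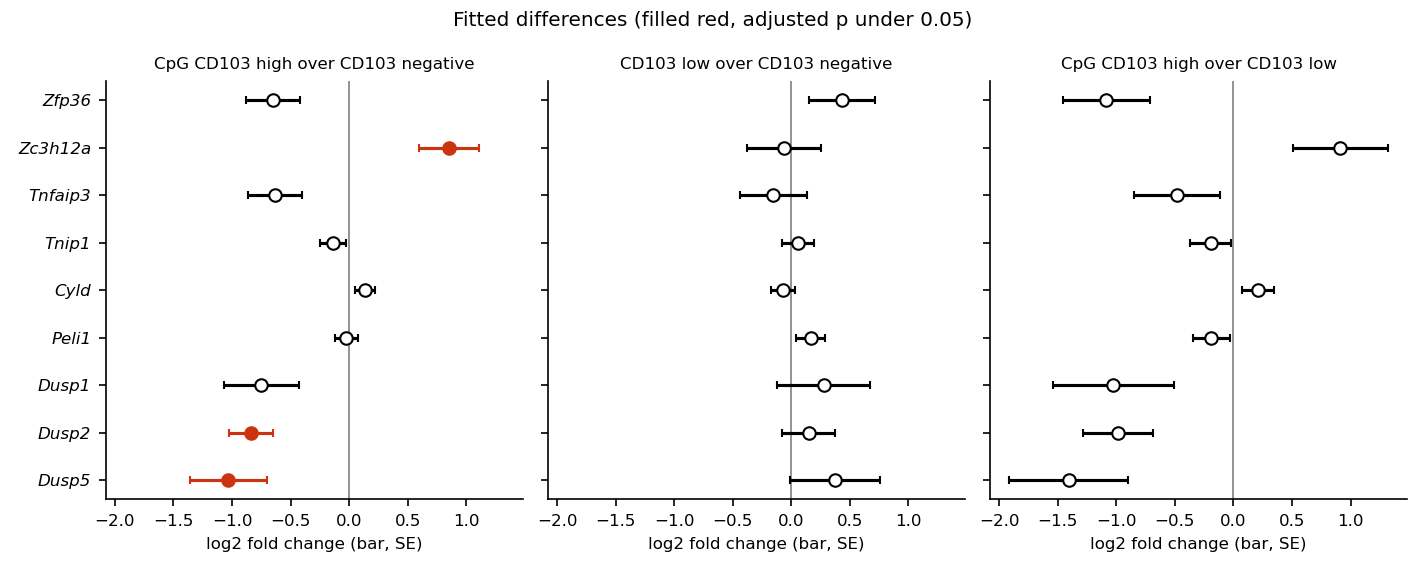
Fitted log2 fold change of the 9 tested members (points) with its standard error (bars) in 3 comparisons; filled red points have an adjusted p under 0.05. The 3 red points, all in the left panel, are Zc3h12a, Dusp2 and Dusp5.

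Of the 3 MAP kinase phosphatases, 2 were called lower. Dusp2, a nuclear phosphatase of activated lymphoid and myeloid cells, had 43.7 and 43.0 CPM in CpG CD103 high replicates 1 and 2, 94.9, 60.1 and 63.2 CPM in CD103 negative replicates 1, 2 and 3, and 66.1 and 74.0 CPM in CD103 low replicates 1 and 2. Both CpG CD103 high libraries were below the other 5, and they were almost equal to each other. The log2 fold change against CD103 negative was -0.84 (SE 0.19, edgeR adjusted p = 0.0100). This was the steadiest call among the members, kept in 13 of 14 alternative analyses. The exception was the fit without CD103 negative replicate 1, where the log2 fold change was -0.47 and the edgeR adjusted p 0.0577.

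Dusp5, a nuclear phosphatase specific for ERK, had 34.2 and 19.7 CPM in CpG CD103 high replicates 1 and 2, 74.2, 36.2 and 41.1 in CD103 negative replicates 1 to 3, and 46.8 and 59.8 in CD103 low replicates 1 and 2. Its groups did not overlap either, but CpG CD103 high replicate 1 was close to CD103 negative replicate 2. The log2 fold change against CD103 negative was -1.03 (SE 0.33, edgeR adjusted p = 0.0419). It was called in 6 of 14 alternative analyses. The edgeR adjusted p was 0.344 without CD103 negative replicate 1 (log2 fold change -0.43), 0.215 without CpG CD103 high replicate 2 (-0.70), 0.0715 without CD103 low replicate 1 (-1.03) and 0.0710 without CD103 low replicate 2 (-1.03). It was 0.211 in DESeq2 and 0.0709 in the 2012 libraries alone.

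Dusp1, which inactivates p38 and JNK and is induced within minutes by stress and Toll-like receptor ligands, spanned a 3.20-fold range over the 7 libraries. It had 516 and 455 CPM in CpG CD103 high replicates 1 and 2, 1070, 561 and 420 in CD103 negative replicates 1 to 3, and 334 and 684 in CD103 low replicates 1 and 2. The groups overlapped, and replicates of 1 group differed more than the group means did. The log2 fold change against CD103 negative was -0.75 (SE 0.32, edgeR adjusted p = 0.112). It was -0.21 without CD103 negative replicate 1 and -1.14 (edgeR adjusted p = 0.0347) without CD103 negative replicate 2, so which of the pair dated 2012 was kept decided the call.

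Of the mRNA-decay factors 1 was called. Zc3h12a, the endonuclease that cleaves stem-loops in inflammatory transcripts such as those of Il6 and of its own gene, had 43.5 and 27.3 CPM in CpG CD103 high replicates 1 and 2. It had 23.7, 15.5 and 24.9 CPM in CD103 negative replicates 1 to 3 and 20.9 and 26.9 in CD103 low replicates 1 and 2. CpG CD103 high replicate 1 was far above all other libraries, while replicate 2 was only just above CD103 low replicate 2. The log2 fold change against CD103 negative was 0.85 (SE 0.26, edgeR adjusted p = 0.0340).

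Zc3h12a was called in 6 of 14 alternative analyses. Without CD103 negative replicate 1 its log2 fold change was 1.19 (edgeR adjusted p = 0.0321), so its call did not rest on the library that stood apart for the phosphatases. The edgeR adjusted p was 0.223 without CpG CD103 high replicate 1 (log2 fold change 0.48), 0.197 without CD103 negative replicate 2 (0.58), 0.0566 without CD103 low replicate 1 (0.85) and 0.0559 without CD103 low replicate 2 (0.85). It was 0.0632 in DESeq2 and 0.0549 in the 2012 libraries alone.

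**Figure D4:**
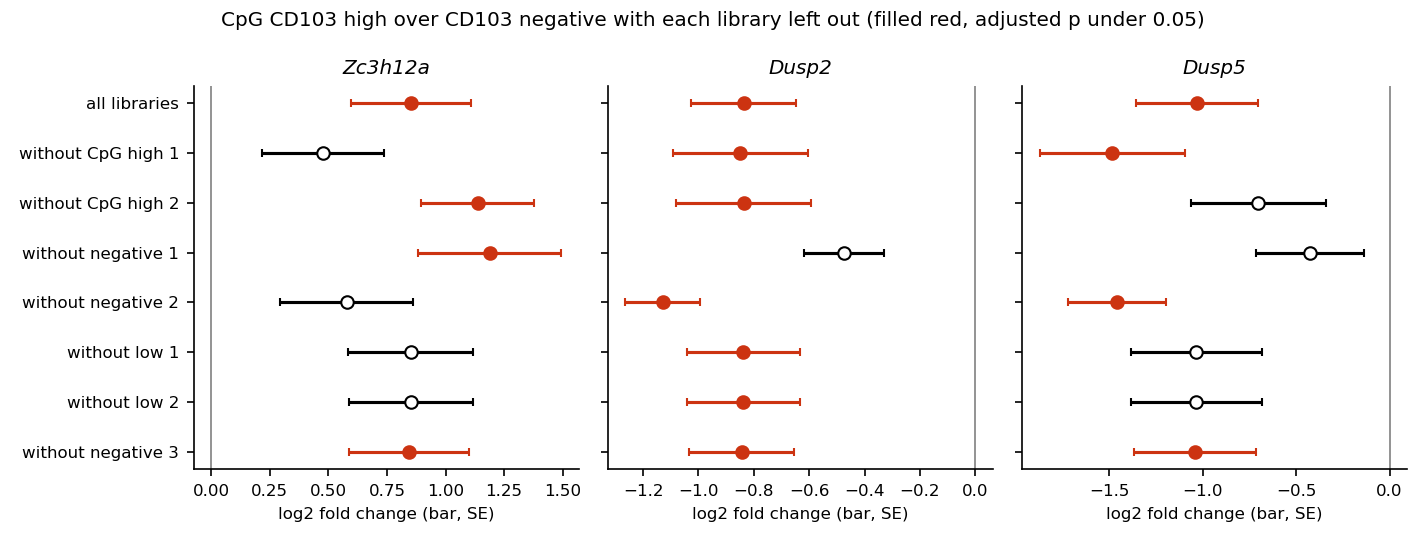
Log2 fold change of Zc3h12a, Dusp2 and Dusp5 (points, with standard error bars) between CpG CD103 high and CD103 negative cells, with all libraries and with each library left out in turn; filled red points have an adjusted p under 0.05. Dusp2 loses its call only without CD103 negative replicate 1, and the points of Zc3h12a and Dusp5 keep their side of 0 throughout.

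Zfp36, which binds AU-rich elements in the mRNAs of Tnf and other cytokines and brings in the deadenylation machinery, had 1305 and 1078 CPM in CpG CD103 high replicates 1 and 2, 2317, 1425 and 999.9 in CD103 negative replicates 1 to 3, and 1064 and 1636 in CD103 low replicates 1 and 2. The highest and the lowest of the 7 values were both in CD103 negative cells. The log2 fold change was -0.65 (SE 0.23, edgeR adjusted p = 0.0612). It was -0.26 without CD103 negative replicate 1 and -0.96 (edgeR adjusted p = 0.0169) without CD103 negative replicate 2. Zfp36 was called in 2 of 14 alternatives, that last fit and the one on library totals alone. With library totals alone 1 member was called higher and 3 lower, beside 1368 and 1446 of 10863 tested genes.

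Of the ubiquitin-editing members none was called with all libraries in the fit with group and date. Tnfaip3, whose protein A20 trims ubiquitin chains upstream of IKK, had 108 and 90.3 CPM in CpG CD103 high replicates 1 and 2, 200.2, 107 and 129 in CD103 negative replicates 1 to 3, and 107 and 126 in CD103 low replicates 1 and 2. Apart from CD103 negative replicate 1, the 6 libraries lay within 90.3 and 129 CPM. The log2 fold change was -0.63 (SE 0.23, edgeR adjusted p = 0.0723), it was -0.11 without that library, and it was -1.02 (edgeR adjusted p = 0.00219) without CD103 negative replicate 2. With the replicate number as a block and no date term it was -0.61 (edgeR adjusted p = 0.0499), which passes the test.

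Tnip1, Cyld and Peli1 were the steady members. Tnip1, a ubiquitin-binding partner of A20, ran from 73.3 to 87.8 CPM over the 7 libraries, and both CpG CD103 high libraries (74.3 and 73.3 CPM) were below the other 5. Its log2 fold change was -0.14 (95% interval -0.38 to 0.11). Cyld, a deubiquitinase of signalling chains, ran from 141 to 161 CPM with a log2 fold change of 0.14 (95% interval -0.055 to 0.33). Peli1, a ubiquitin ligase that binds IRAK kinases and is described as a brake or a promoter of signalling depending on the cell, ran from 112 to 132 CPM with a log2 fold change of -0.023 (95% interval -0.25 to 0.20). Counting groups whose CPM did not overlap, Tnip1, Dusp2 and Dusp5 were lower and Zc3h12a higher in CpG CD103 high than in CD103 negative cells, 4 of 9, against 44.7% of all tested genes (22% higher, 22.7% lower).

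Irak3, which is best known from monocytes and macrophages, was hardly detected. Its counts were 4 and 3 in CpG CD103 high replicates 1 and 2, 0, 5 and 4 in CD103 negative replicates 1 to 3, and 1 and 3 in CD103 low replicates 1 and 2. A count of 0 allows up to 3 counts, which correspond to 0.648 to 0.671 CPM in these libraries, so all values lie around that limit and no fold change is given. Such limits cover counting error only.

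The spread between replicates of 1 group and date divided the members along the same line. The residual SD of log2 CPM was 0.57 for Dusp1, 0.55 for Dusp5, 0.40 for Zfp36, 0.39 for Tnfaip3 and 0.39 for Zc3h12a, each at or above the 90.0th percentile of all tested genes. It was 0.28 for Dusp2, at the 79.8th percentile. It was 0.10 for Tnip1, 0.10 for Peli1 and 0.048 for Cyld, below the median of 0.15 over all tested genes. Zfp36 and Dusp1 had this spread in spite of 4687 to 10554 and 1473 to 4875 counts per library, so that counting noise was small for them. The SD includes CD103 negative replicates 1 and 2. These differed 1.87-fold for Tnfaip3, against 1.19-fold in CpG CD103 high and 1.17-fold in CD103 low. For Dusp2 the folds were 1.58, 1.02 and 1.12 in that order. Other pairs differed too for Dusp1 (2.04-fold) and Zfp36 (1.54-fold) in CD103 low, and for Dusp5 (1.73-fold) and Zc3h12a (1.59-fold) in CpG CD103 high.

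**Figure D5:**
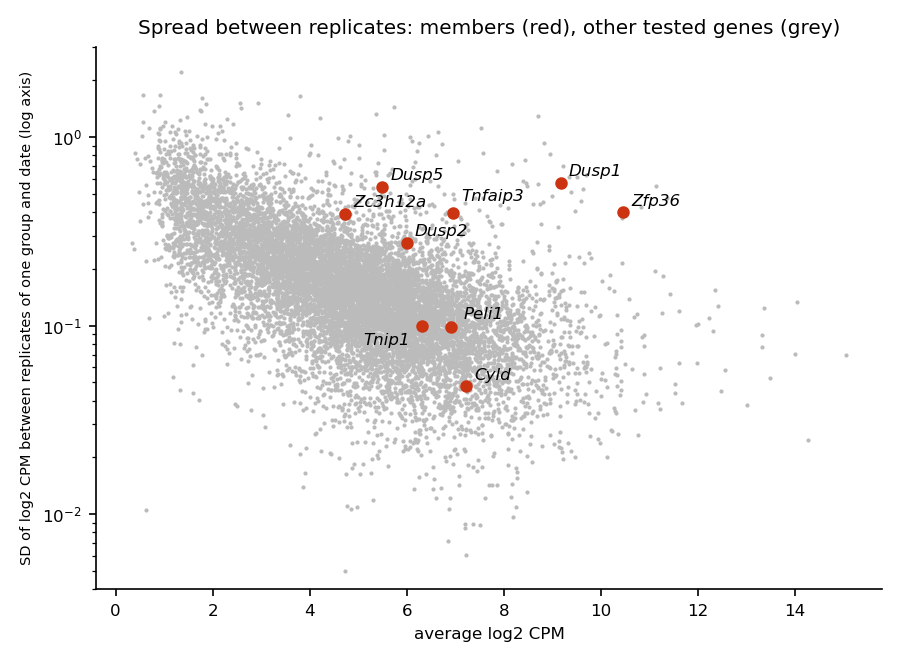
SD of log2 CPM between replicates of 1 group and date (y axis, log scale) against average log2 CPM (x axis) for the tested genes; members are red. Dusp1, Zfp36, Tnfaip3 and Dusp5 lie at the upper edge of genes of their abundance, and Tnip1, Peli1 and Cyld lie within or below the bulk.

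No member was called between CD103 low and CD103 negative cells, where 0.138% of all tested genes were called (15 genes). By edgeR 0 of 9 had an unadjusted p under 0.05, beside 797 of all 10863 tested genes. DESeq2 also called 0, with 1 of the 9 adjusted p-values undefined. EdgeR called 0 as well without CD103 negative replicate 1. With the date as a term that library hardly enters this comparison, so leaving it out could decide little. The median log2 fold change of the 9 was 0.15 both with and without it. The log2 fold changes ran from -0.15 for Tnfaip3 (95% interval -0.79 to 0.48) to 0.43 for Zfp36 (-0.20 to 1.07). The groups overlapped in CPM for all 9, whereas 28.3% of all tested genes showed no overlap. With the date as a term, this comparison rested on CD103 negative replicate 3 as the only control of the same date, and the intervals of Zfp36, Dusp1 (-0.61 to 1.16) and Dusp5 (-0.49 to 1.24) are too wide to exclude a change of 2-fold. CD103 low replicate 2 had the higher level of the pair for Zfp36, Dusp1, Dusp2, Dusp5, Tnfaip3, Tnip1 and Zc3h12a. It also had the higher immediate early sum (9718 against 5811 CPM) and 37.9 summed CPM of 12 T and NK cell markers, against at most 5.90 in the other libraries, with 1 of the 12 at 0 in it. Their part in these values was not tested.

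Between CpG CD103 high and CD103 low cells no member was called either, where 6.22% of all tested genes were called. By edgeR 4 of 9 had an unadjusted p under 0.05, beside 2553 of all 10863 tested genes. DESeq2 called 0, with 1 of 9 under an unadjusted 0.05, beside 1256 of 10863. The largest values were -1.41 for Dusp5 (SE 0.51, edgeR adjusted p = 0.129), -1.08 for Zfp36 (SE 0.37, edgeR adjusted p = 0.109), -1.03 for Dusp1 (SE 0.51, edgeR adjusted p = 0.262), -0.98 for Dusp2 (SE 0.30, edgeR adjusted p = 0.0791) and 0.91 for Zc3h12a (SE 0.41, edgeR adjusted p = 0.210). This contrast is the difference of the other comparisons, which share the CD103 negative libraries, and it crosses the dates. Without CD103 negative replicate 2, 4 members were called: Dusp2 (-1.28, edgeR adjusted p = 0.0106), Dusp5 (-1.83, 0.0316), Zfp36 (-1.39, 0.0403) and Tnfaip3 (-0.86, 0.0456). In that fit 268 of 10806 tested genes were called higher and 284 lower. Without CD103 negative replicate 3, where the date term had to be dropped too, Dusp2 was called (-0.67, edgeR adjusted p = 0.0400). There 906 of 10766 tested genes were called higher and 762 lower. Without CD103 negative replicate 1 none was called, and the value of Dusp5 was -0.80 and that of Dusp2 -0.62.

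The date itself was compared within CD103 negative cells, replicate 3 against replicates 1 and 2. None of the 9 was called by edgeR or by DESeq2, where edgeR called 3.46% of all tested genes. In edgeR 2215 of all 10863 tested genes had an unadjusted p under 0.05, and so did 2 of the 9 members. These were Zfp36, with a log2 difference of -0.90 (SE 0.29, edgeR adjusted p = 0.118), and Dusp1, with -0.96 (SE 0.41, edgeR adjusted p = 0.220). Without CD103 negative replicate 1 the differences were -0.51 for Zfp36 and -0.42 for Dusp1, and no member was called.

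The genes whose centred log2 CPM profile over the 7 libraries was nearest to each member's, among 7276 genes compared, were found by root mean square difference. Zfp36 and Dusp1 were each other's nearest neighbour, at 0.16 log2 units. The next for Zfp36 was Nfkbia, the NF-kB inhibitor IkB-alpha (0.18), and for Dusp1 Junb, an AP-1 subunit (0.17). Tnfaip3 was nearest to Ptger4, a prostaglandin E2 receptor (0.09), and to Zfp36l1, a paralogue of Zfp36 (0.13). Dusp5 was nearest to Gpr65 (0.21) and Cytip (0.24), Dusp2 to Tmem160 (0.11) and Gm8680 (0.12), and Zc3h12a to Fbxw7 (0.17) and Ccnl1 (0.17). The steady members matched other steady genes, Tnip1 with Bscl2 and Ube2d1 at 0.04 each, Cyld with Sec24c and Ppil2 at 0.02 each, and Peli1 with Cwc25 (0.03) and Icam1 (0.04). These likenesses share 7 libraries, among them the high values of CD103 negative replicate 1.

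Other brakes of the same pathway were counted beside the members. Of 16 tested receptor-proximal brakes, 6 rose and 0 fell in CpG CD103 high against CD103 negative cells, where 14.5% of all tested genes rose. With CD103 negative replicate 1 left out, 5 of 16 rose, where 9.16% of all tested genes rose. Socs1, an inhibitor of cytokine receptor kinases and of the adaptor MAL, rose 3.67-fold, from 5.60 to 8.34 CPM in the CD103 negative libraries to 28.2 and 23.1 CPM (edgeR adjusted p = 0.00059). Lilrb4a, an inhibitory receptor, rose 6.71-fold (edgeR adjusted p = 0.000701), and Trafd1, a zinc-finger protein that restrains TRAF signalling, rose 1.63-fold (edgeR adjusted p = 0.000315). These 3 were called in all 14 alternatives, and reads shared between Lilrb4a and its close paralogue may be split in the counts.

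Of 17 partners of A20 and CYLD, 2 rose and 1 fell. Sharpin, a subunit of the linear ubiquitin ligase, rose 1.86-fold (edgeR adjusted p = 0.00059) and Tnip2, a relative of Tnip1, rose 1.91-fold (edgeR adjusted p = 0.00217), both in all 14 alternatives. Otulin, which removes linear chains, fell 1.38-fold (edgeR adjusted p = 0.0180). That call was lost without CD103 negative replicate 1 (log2 fold change -0.37, edgeR adjusted p = 0.116) and without CpG CD103 high replicate 1 (-0.43, 0.0671). Of 14 other mRNA-decay regulators, 3 rose and 2 fell, among them Pan3, a deadenylase subunit (1.74-fold higher), Rc3h2, which is Roquin-2 (1.65-fold higher), and Hnrnpd, an AU-rich element binder (log2 fold change -0.49). Of 6 other dual-specificity phosphatases, 1 rose, Dusp7, a cytoplasmic ERK phosphatase, by 2.04-fold (edgeR adjusted p = 0.0404), in 7 of 14 alternatives. Its call was lost without either CpG CD103 high library (0.98 without replicate 1, edgeR adjusted p = 0.119; 1.07 without replicate 2, 0.101) and without CD103 negative replicate 1 (0.87, 0.170) or replicate 2 (1.21, 0.0848). Together with IkB proteins and Bcl3, these 59 brakes and partners held 13 that rose and 4 that fell, 28.8% against 26.3% of all tested genes (14.5% higher, 11.8% lower). Leaving out CD103 negative replicate 1, 12 rose and 2 fell, 23.7% against 16.1% of all tested genes.

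The pathway of Toll-like receptor 9 was taken from the receptor to IKK, with transcription factors of the IRF family. In it 8 of 18 tested genes rose and 0 fell, where 14.5% of all tested genes rose. When CD103 negative replicate 1 was left out, 4 of 18 rose, where 9.16% of all tested genes rose. Chuk, the kinase IKK-alpha, rose 2.35-fold, from 88.2 to 133 CPM in CD103 negative libraries to 204 and 213 CPM (edgeR adjusted p = 2.84e-05). Irf7 rose 2.05-fold (edgeR adjusted p = 0.000979) and Myd88, the adaptor, 1.45-fold (edgeR adjusted p = 0.00341). Of 6 IkB proteins and Bcl3, Bcl3 rose 1.51-fold (edgeR adjusted p = 0.0146) and Nfkbia fell 1.72-fold (edgeR adjusted p = 0.0196). Nfkbia lost its call without CD103 negative replicate 1 (log2 fold change -0.40, edgeR adjusted p = 0.140) and without CpG CD103 high replicate 2 (-0.59, 0.116), and Bcl3 without CpG CD103 high replicate 2 (0.57, 0.0589) and CD103 negative replicate 2 (0.45, 0.0959). With no date term the value of Bcl3 was 0.29 (edgeR adjusted p = 0.449) and it was not called. Between the dates, within CD103 negative cells, Bcl3 (log2 difference 0.77, edgeR adjusted p = 0.0411), Chuk (0.58, 0.0197), Pan3 (0.55, 0.0374) and Rc3h2 (0.65, 0.0292) were called higher in 2013, and Rc3h2 lost its call in CpG CD103 high with no date term (0.47, 0.134). Of 5 NF-kB subunits, 1 fell, Nfkb2 (1.38-fold lower, edgeR adjusted p = 0.00488). Of 14 MAP kinases and related kinases, which include kinases upstream and downstream of the phosphatases' substrates, 2 rose and 2 fell. Among all tested genes 14.5% rose and 11.8% fell.

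Among 10 tested transcripts that tristetraprolin or Regnase-1 is known to destabilise, 1 rose and 3 fell, where 14.5% of all tested genes rose and 11.8% fell. Their median log2 fold change was -0.74, and it was -0.03 without CD103 negative replicate 1. Without that library 2 rose (Il12b and Ier3) and 1 fell (Tnfrsf4), where 9.16% of all tested genes rose and 6.95% fell. Il12b was named after its values were seen. Tnfrsf4, the receptor OX40, fell 3.72-fold (edgeR adjusted p = 0.000654), from 17.7 to 23.8 CPM in CD103 negative libraries to 3.77 and 6.50 CPM. Ccl3, a chemokine, was at 48.7 CPM in CD103 negative replicate 1 and at 4.90 to 5.82 in the other CD103 negative libraries, against 3.11 and 1.34 in CpG CD103 high. Its log2 fold change was -3.59 (edgeR adjusted p = 0.0176), and -1.38 (edgeR adjusted p = 0.121) without that library. The call of Ccl3 was also lost without CpG CD103 high replicate 1 (-4.31, edgeR adjusted p = 0.0538) or replicate 2 (-3.13, 0.104). Ier3, an immediate early gene that is on both lists, rose 2.46-fold (edgeR adjusted p = 0.0273), a call lost without CpG CD103 high replicate 1 (log2 fold change 0.59, edgeR adjusted p = 0.211), CD103 negative replicate 2 (0.89, 0.165), CD103 low replicate 1 (1.30, 0.0539) or CD103 low replicate 2 (1.30, 0.0532).

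Beside these differences, 4 of 24 immediate early genes fell and 1 rose between CpG CD103 high and CD103 negative cells. Among all tested genes 11.8% fell and 14.5% rose, which is also the background for the lists that follow. The median log2 fold change of the 24 was -0.35, and it was 0.18 without CD103 negative replicate 1. Jun fell 2.90-fold (edgeR adjusted p = 0.00143) and Gadd45b 2.86-fold (edgeR adjusted p = 0.000287), both in all 14 alternatives. Of 10 heat-shock genes, which respond to stress of the cell, 7 fell, and their summed CPM was 2832 to 2883 in CpG CD103 high, 4105 to 6189 in CD103 negative and 4358 to 4525 in CD103 low libraries. The cDC1 markers also differed, with 7 of 10 called higher in CpG CD103 high. Their summed level was 16900 to 17025, against 11398 to 12470 CPM in CD103 negative libraries. Itgae, the gene of CD103, is among the 7 and in the sum, so its call followed from how the groups were defined. Of 7 tested cDC2 markers 4 were called lower, and the summed level of all 10 was 20.2 to 29.5 against 42.3 to 103.9 CPM, with 1 or 2 of the 10 at 0 in each of these libraries. The summed level of 12 macrophage markers was 579 to 674 against 382 to 479 CPM, with 0 to 3 of the 12 at 0 in a library, but of 7 tested only Hmox1 was called higher, and Cd68, Vcam1 and Spic were called lower, all 4 named after their values were seen. The summed level of 9 erythroid and platelet markers was 32.2 to 36.1 against 3.29 to 5.53 CPM, with 5 of 6 tested called higher. Among 5 tested B cell markers 3 were called lower, and among 7 tested plasmacytoid dendritic cell markers 2 were called higher and 2 lower. Among 2 tested monocyte and neutrophil markers 1 was called higher. Without CD103 negative replicate 1, 6 of 10 heat-shock genes were called lower and 6 of 10 cDC1 markers higher. In that fit 2 of 7 cDC2 and 2 of 5 B cell markers were called lower, and 3 of 6 erythroid and platelet markers higher. Of 7 macrophage markers 1 was called higher (Hmox1) and 1 lower (Vcam1). The other marker counts did not change, and of 24 immediate early genes 1 rose and 2 fell. Among all tested genes 9.16% were called higher and 6.95% lower. The part of all these genes in the members' differences was not tested. Between CD103 low and CD103 negative cells none of the lists of brakes, pathway genes, immediate early or heat-shock genes held a called gene.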

How the data were processed

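Total RNA of 7 sorted samples was sequenced. Each deposited file lists raw counts and a length for every gene, per the file headers, with no normalization by the authors. CASAVA, Subread 1.4.6, featureCounts and build mm10 are listed without roles, per the submitters' processing notes. The sources used here do not give the strand setting or the treatment of multi-mapping reads, and Tnip1, Cyld, Irak3 and Peli1 overlap other annotated transcripts. A further table has 7 per-sample columns whose names match no label and was not used. Of 27179 Entrez identifiers, 25275 (93.0%) matched a RefSeq symbol, and the rest held 0.533% of counts.

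Counts were tested in R 4.3.3 with edgeR 4.0.16: filterByExpr (10863 genes kept), TMM factors, a quasi-likelihood fit with group and date over all 7 libraries on 3 residual degrees of freedom, and Benjamini-Hochberg adjustment over all genes, with calls at an adjusted p under 0.05. CpG CD103 high was thus compared with the CD103 negative libraries of 2012, and CD103 low with that of 2013. The SE was taken as the absolute log2 fold change over the square root of F. P-values measure the spread between these samples. The fit was tested on simulated data for CpG CD103 high against CD103 negative (10703 genes): it called 28 of 67 genes changed 1.5-fold, 61 of 67 changed 2-fold and 66 of 66 changed 4-fold, with 2 false calls. The simulated counts had the average spread for their abundance, no date difference and no library that stood apart. How far these shares hold for members with a wider spread was not tested. Alternatives were RLE factors, library totals alone, no filter, no date term, the replicate number as a block, DESeq2 1.42.0, libraries of 1 date alone and each library left out.

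The text names all 10 members, up to 3 called genes of each further list by adjusted p, and the 2 genes of average log2 CPM of at least 4 whose profile was nearest to each member's. Uncalled genes that the rule also takes, the most abundant of a list with no called gene, are covered by their list's count. Some called genes of the MAP kinase, immediate early and heat-shock lists are likewise given by count alone, and 1 result is not reported here. The members and lists were chosen with earlier results of these data known. Promoter windows of 250 bases came from RefSeq on GRCm38.p6.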

Additional observations from a re-analysis of the deposited data

How the results depend on the processing

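Depth limited Irak3 most among the members. With 2 or 3 libraries a group, single libraries decided most calls, and a sample left alone in its group was assumed to vary like the others. In CpG CD103 high against CD103 negative, 1 member was called with no filter, no date term, DESeq2 or the 2012 libraries alone, and 1 to 5 with each library left out; the genes called numbered 1589 with no date term, 1459 in DESeq2 and 1738 to 2861 with each library left out. In CD103 low against CD103 negative, 0 members were called in every alternative, and genes called numbered 1 with no filter, 40 in DESeq2, 187 in the 2013 libraries alone and 1 to 1035 with each library left out. In CpG CD103 high against CD103 low, 0 to 4 members were called with each library left out, and genes called numbered 263 with no filter, 382 in DESeq2 and 115 to 1668 with each library left out. For the date, genes called numbered 103 with no filter, 220 in DESeq2 and 93 to 612 with each library left out. The 1035 and 1668 genes came from the fit without CD103 negative replicate 3, where the date term had to be dropped. CD103 low libraries of 2013 were then set against libraries of 2012 alone, so group and date cannot be told apart in it. Other than through fewer samples, more genes tested or the dropped date term, the cause was not tested.

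Whether replicate numbers pair the samples could not be decided. Correlations of deviations between same-numbered libraries ran from -0.085 to 0.21. Between CpG CD103 high and the CD103 negative libraries of 2012, same-numbered values were 0.21 and 0.047 and different-numbered ones -0.21 and -0.047. The deviations of a group of 2 libraries mirror each other, so these different-numbered values repeat the same-numbered ones with the sign turned. With the number as a replicate block and no date term, 4 (Tnfaip3 in addition), 0 and 2 members and 3013, 1175 and 1775 genes were called in CpG CD103 high against CD103 negative, CD103 low against CD103 negative and CpG CD103 high against CD103 low. Number 3 belonged to CD103 negative replicate 3 alone, so the block took up that library. CD103 low libraries of 2013 were thus set against CD103 negative libraries of 2012 alone. Group and date cannot be told apart in that contrast, or in CpG CD103 high against CD103 low, which crosses the dates. The part of the date in the counts and signs of these contrasts was not tested. In CD103 low against CD103 negative the block turned signs for Zfp36 (log2 fold change -0.44), Zc3h12a (0.31), Cyld (0.039), Dusp1 (-0.67) and Dusp2 (-0.13). The fit with no date term did so too, with -0.23, 0.16, 0.0018, -0.43 and -0.054 in that order.

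Signs of uncalled members also turned for Tnip1 under library totals alone (-0.052 in CD103 low against CD103 negative and 0.030 for the date) and with single libraries left out. In CD103 low against CD103 negative those ranges were -0.030 to 0.14 for Tnip1, -0.50 to 0.71 for Zfp36, -0.25 to 0.26 for Zc3h12a, -0.10 to 0.011 for Cyld, -0.71 to 0.70 for Dusp1, -0.17 to 0.23 for Dusp2 and -0.077 to 0.54 for Dusp5. They were -0.11 to 0.066 for Peli1 in CpG CD103 high against CD103 negative and -0.86 to 0.039 for Tnfaip3 in CpG CD103 high against CD103 low. For the date they were -0.63 to 0.27 for Tnfaip3, -0.11 to 0.060 for Tnip1, -0.15 to 0.024 for Peli1, -0.59 to 0.071 for Dusp2 and -0.85 to 0.18 for Dusp5. No called member changed its sign in these alternatives.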
